A study of Mus musculus with 4 samples.

Results

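The HoxB cluster is a run of homeobox genes on mouse chromosome 11, and its histone methylation was measured here in the mouse fibroblast line MDER 10T, in which, going by the series title, MyoD1 can be induced by estrogen. MyoD1 is the transcription factor that starts muscle differentiation. The region was set by position, from 95960001 to 96220000 on chromosome 11 of the mm8 build, and was cut into 260 tiles of 1 kb out of 2630664 tiles over chromosomes 1 to 19, X and Y. Chromatin immunoprecipitation with sequencing (ChIP-seq) gave 1 library each for H3K4me3, H3K27me3 and H3K9me3. The control was a library of whole-cell extract (WCE) that had no immunoprecipitation. All 4 libraries came from the same cells in DMEM/F12 without phenol red and with 10% FCS, and the labels name no estrogen treatment. With 1 library per group there is no replicate spread, so a test on reads compares 2 libraries (a mark against WCE) and no conditions.

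Hox genes encode transcription factors that give cells their position along the head-to-tail axis. They lie in the chromosome in the order in which they act along the body. Polycomb complexes place H3K27me3 on Hox genes that a cell lineage keeps silent, while H3K4me3, laid down by Trithorax-group enzymes, is typical of active or poised promoters. H3K9me3 is typical of heterochromatin. Fibroblasts in the body retain Hox patterns that reflect the site they came from.

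The cluster has 10 member genes. Hoxb13, at the low-coordinate end, is a posterior gene known for its role in the prostate and the tail. Hoxb9, Hoxb8, Hoxb7, Hoxb6 and Hoxb5 pattern the trunk, Hoxb4 and Hoxb3 the neck and hindbrain, and Hoxb2 and Hoxb1, at the high-coordinate end, the hindbrain. Hoxb1 marks the fourth rhombomere. The RefSeq gene table of GRCm38.p6 lists all 10 members, with 9 other genes among them. Of those, 6 lie between Hoxb13 and Hoxb9, namely Gm30134, Gm11538, Gm11539, Gm53, Gm51876 and Mir196a-1. Hoxb5os, Mir10a and Hoxb3os lie farther towards Hoxb1. This table and the sequences below belong to another build than the reads, so they give names and order only. Below, the sides of the region are named for the genes by this order, and no read count is assigned to a single gene or promoter.

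RefSeq promoter sequences (250 bases before to 50 after the start, GRCm38.p6, plus strand) matched 3 of the 10 members. They are shown because CpG-dense DNA is where both H3K4me3 and Polycomb marks are commonly found, and the capitals mark each CG, a motif that reads the same on both strands.
Hoxb1: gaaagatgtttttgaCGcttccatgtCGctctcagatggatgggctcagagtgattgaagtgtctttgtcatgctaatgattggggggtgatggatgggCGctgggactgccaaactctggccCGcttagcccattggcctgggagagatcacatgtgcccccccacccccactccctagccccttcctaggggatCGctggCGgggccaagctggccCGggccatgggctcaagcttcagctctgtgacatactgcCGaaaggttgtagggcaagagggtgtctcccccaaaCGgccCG
Hoxb4: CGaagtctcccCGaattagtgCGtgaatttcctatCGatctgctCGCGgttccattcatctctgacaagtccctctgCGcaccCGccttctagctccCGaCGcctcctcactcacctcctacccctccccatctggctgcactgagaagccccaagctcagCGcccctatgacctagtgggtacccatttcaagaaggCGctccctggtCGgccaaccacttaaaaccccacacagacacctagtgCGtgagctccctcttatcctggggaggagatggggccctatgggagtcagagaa
Hoxb8: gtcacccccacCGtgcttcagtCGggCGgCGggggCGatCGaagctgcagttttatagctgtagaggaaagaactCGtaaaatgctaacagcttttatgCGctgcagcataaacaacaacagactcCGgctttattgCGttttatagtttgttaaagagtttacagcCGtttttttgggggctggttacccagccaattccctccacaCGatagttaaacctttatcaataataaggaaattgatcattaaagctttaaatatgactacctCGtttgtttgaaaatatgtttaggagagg

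The promoter of Hoxb1 held 10 CG pairs, that of Hoxb4 held 14 and that of Hoxb8 held 13, against a median of 7 over 32851 promoters of the same length. As many or more were found in 43.5%, 36.3% and 37.9% of all promoters. GC content was 59.3% for Hoxb1, 58.0% for Hoxb4 and 42.3% for Hoxb8, against a median of 52.7%. Hoxb8 thus had the lowest GC content of the 3 and a number of CG pairs between the other promoters.

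The cluster also carries 2 microRNA genes, shown because their products act on Hox messages or lie among the Hox genes described. Mir196a-1 lies between Hoxb13 and Hoxb9, and its main product targets the Hoxb8 message. Mir10a lies beside Hoxb4. Their mature 5′ products are printed with the seed (bases 2 to 8) in capitals, and the seeds differ.
mmu-miR-196a-5p: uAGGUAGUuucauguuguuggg
mmu-miR-10a-5p: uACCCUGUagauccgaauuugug

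Depth was similar in 3 libraries and lower for H3K9me3. After repeated positions were collapsed, the autosomes held 2101444 to 3086567 reads per library. In the HoxB region the totals were 2050 (H3K4me3), 2066 (H3K27me3), 549 (H3K9me3) and 661 (WCE). WCE itself was 2.10 times as dense in the region as over the autosomes, with 2.54 reads per kb.

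Over the whole region, H3K4me3 and H3K27me3 both exceeded WCE. Scaled to equal autosomal totals, the H3K4me3 ratio to WCE was 2.99 (95% exact interval 2.74 to 3.27) and the H3K27me3 ratio was 3.17 (2.91 to 3.47). The H3K9me3 ratio was 1.18 (1.05 to 1.32). When the median ratio over 100 kb bins set the scale, they were 5.25, 3.94 and 1.25, so which of the first 2 marks is higher depends on the scaling. All intervals allow for counting error alone, and PCR reads that carry no molecular identifier are not independent molecules. The region was ranked among 8764 other autosomal windows of the same length that held at least 100 WCE reads. Of these, 2 had as high an H3K27me3 ratio, 20 as high an H3K4me3 ratio and 1122 as high an H3K9me3 ratio.

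**Figure D1:**
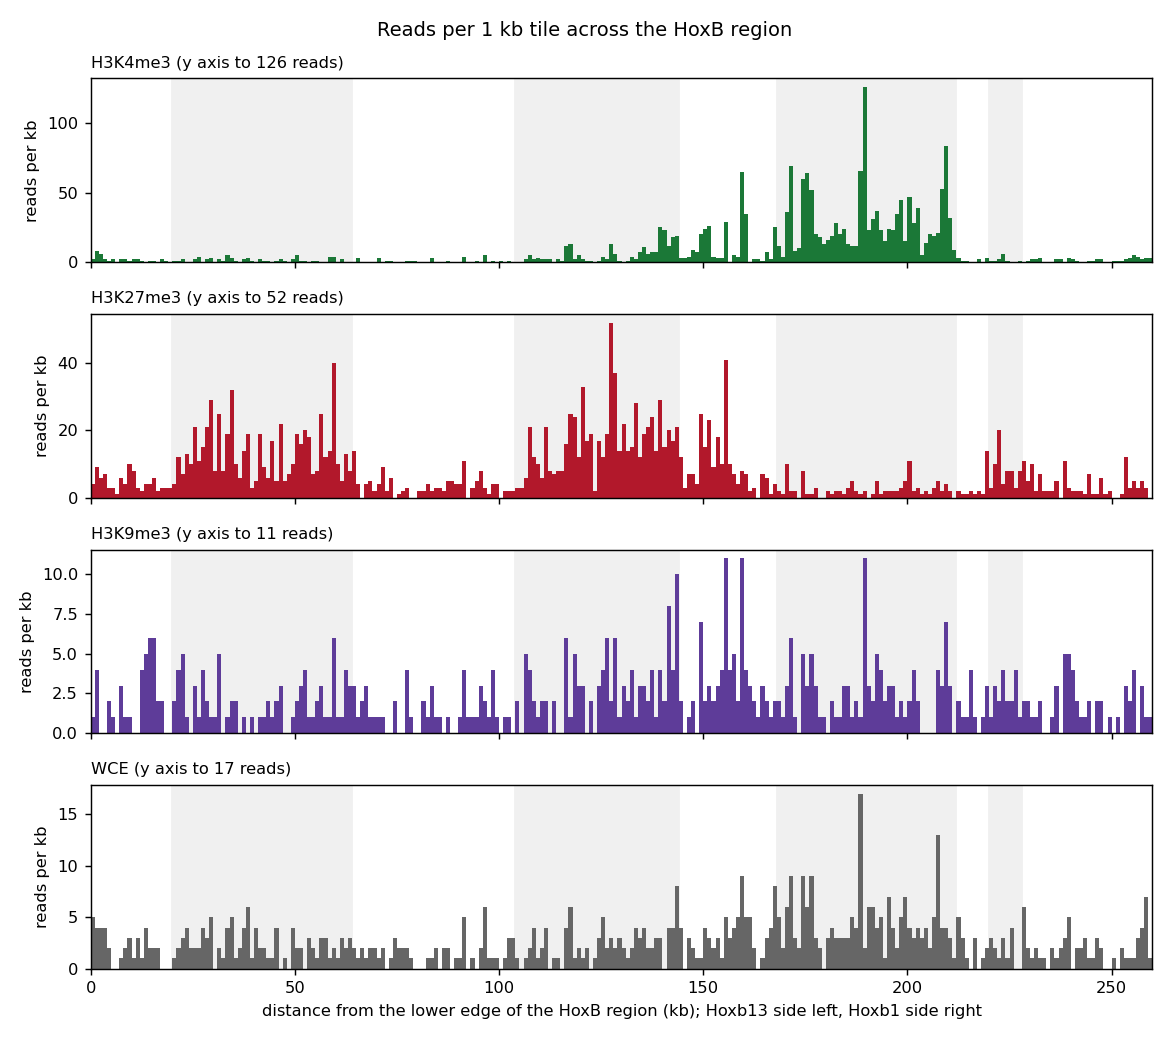
Reads per 1 kb tile (y axis, separate scale per panel) for the 3 marks and WCE against distance from the lower edge of the region in kb, with alternate segments shaded. H3K27me3 has its 2 long stretches on the Hoxb13 side and a short one beyond H3K4me3 on the Hoxb1 side. H3K4me3 has its longest stretch towards the Hoxb1 side and peaks there at 126 reads. Shorter stretches of both marks lie between the long ones, and H3K9me3 stays at 11 reads or fewer.

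A minority of the region's tiles was called for H3K4me3 or H3K27me3. A called tile had a ratio to WCE of at least 2 and passed a one-sided exact binomial test with Benjamini-Hochberg adjustment (threshold 0.05) over all tiles of the genome with a read. H3K4me3 was called in 34 of the 260 tiles, where 1.19% of tested tiles were called genome-wide. H3K27me3 was called in 19 tiles, where the genome-wide share was 0.0418%, and these 19 made up 2.49% of all its 763 calls. No tile was called for H3K9me3, for which 0.00117% of tested tiles were called genome-wide. The 34 H3K4me3 tiles held 65.0% of the region's H3K4me3 reads and 22.4% of its WCE reads. The 19 H3K27me3 tiles held 26.5% of the H3K27me3 reads and 6.35% of the WCE reads, so most H3K27me3 reads of the region lay in tiles that were not called.

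The region was divided at the ends of its long stretches of adjoining called 4 kb windows, found with the same test. Since calls of both marks set these segments, their H3K4me3 and H3K27me3 ratios are a description and carry no test. From the Hoxb13 side they are a lower flank of 20 kb, a lower H3K27me3 stretch of 44 kb, a gap of 40 kb, an upper H3K27me3 stretch of 40 kb, a mixed interval of 24 kb, an H3K4me3 stretch of 44 kb, a spacer of 8 kb, a far H3K27me3 stretch of 8 kb and an upper flank of 32 kb.

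**Figure D2:**
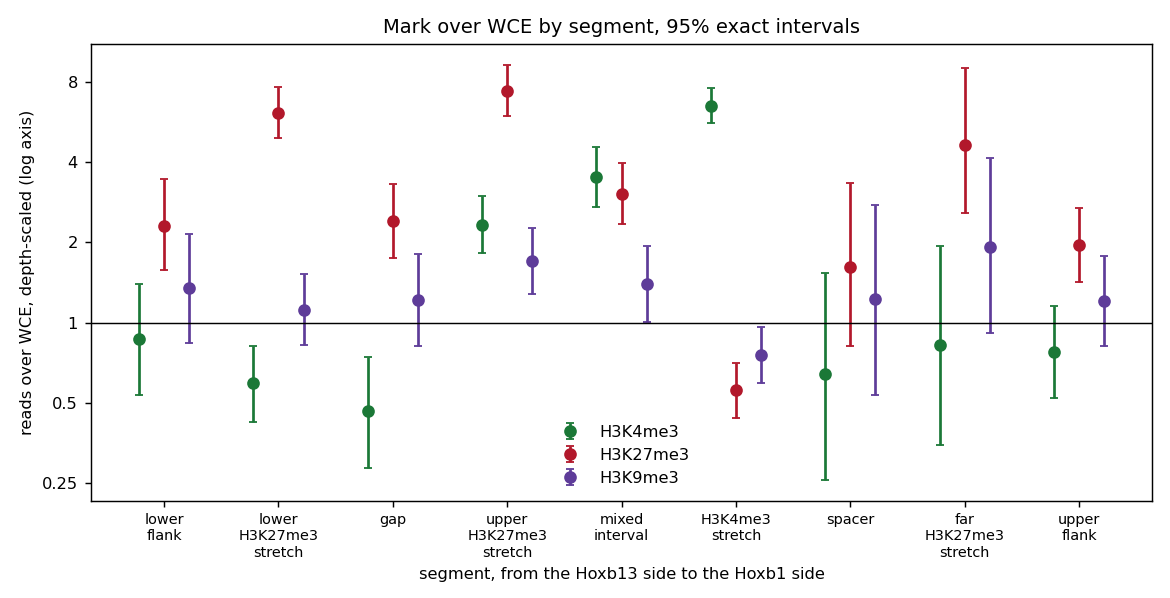
Ratio of each mark to WCE (log axis, depth-scaled) in the 9 segments from the Hoxb13 side to the Hoxb1 side, with 95% exact intervals. H3K27me3 is at 6.10 and 7.38 in its 2 long stretches and at 0.558 in the H3K4me3 stretch, where H3K4me3 reaches 6.48.

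The lower H3K27me3 stretch, from 95980001 to 96024000, lay at the Hoxb13 end. It held 607 H3K27me3, 62 H3K4me3, 80 H3K9me3 and 101 WCE reads, an H3K27me3 ratio of 6.10 (4.93 to 7.61). H3K27me3 exceeded scaled WCE in all 44 of its tiles, where this held for 53.4% of tested tiles genome-wide, but H3K27me3 calls chose the stretch, so nothing is read from this count. Tiles ran from 3 to 40 H3K27me3 reads with a median of 12.0. The 7 called tiles were each isolated. The highest, at 96019001, held 40 H3K27me3, 4 H3K4me3, 6 H3K9me3 and 2 WCE reads (ratio 20.3, 5.26 to 173, adjusted p 8.74e-06 by the binomial test).

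Other called tiles of the lower stretch rested on little WCE. The tile at 96006001 held 22 H3K27me3 reads and 0 WCE reads, which is at least 7.44-fold higher when 3 WCE reads are taken as the floor. That at 96012001 held 20 and 0 (at least 6.77-fold higher). H3K4me3 was at 0.592 of WCE in the stretch (0.425 to 0.820), with no tile above 5 reads. With scaling by the median ratio over 100 kb bins, which raises all H3K4me3 ratios 1.75 times, it was 1.04. The direction of the H3K4me3 ratio there thus depends on the scaling.

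Between the 2 long H3K27me3 stretches, from 96024001 to 96064000, lay the gap, named here for Hoxb13 and Hoxb9 from the order of the genes alone. It held 137 H3K27me3, 28 H3K4me3, 50 H3K9me3 and 58 WCE reads. H3K27me3 fell here from a median of 12.0 reads per tile to 3, and 0 of the 40 tiles were called for any mark. It did not reach the WCE level, however, with a ratio of 2.40 (1.75 to 3.32). Scaled WCE was exceeded in 30 of 40 tiles, where this held for 53.4% of tested tiles genome-wide. That count rests on a median of 1 WCE read per tile. Gap tiles without a single H3K27me3 read were few. The tiles at 96026001, 96034001, 96038001, 96039001, 96052001 and 96060001 held 0, and the highest, at 96024001, held 14.

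The gap was also the part of the cluster with the fewest reads of the other libraries. H3K4me3 stood at 0.227 reads per kb for each 1000000 autosomal reads and WCE at 0.487, the lowest of the 9 segments for each. The H3K4me3 ratio was 0.466 (0.286 to 0.743) by autosomal totals and 0.817 with the scaling by 100 kb bins.

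The upper H3K27me3 stretch, from 96064001 to 96104000, had the highest H3K27me3 density of the cluster. It held 683 H3K27me3, 226 H3K4me3, 113 H3K9me3 and 94 WCE reads, with an H3K27me3 ratio of 7.38 (5.94 to 9.25) and a median of 16.5 H3K27me3 reads per tile. Its interval overlaps that of the lower stretch. All 40 tiles exceeded scaled WCE for H3K27me3, where this held for 53.4% of tested tiles genome-wide, and 9 were called. H3K27me3 calls chose this stretch too, so nothing is read from these counts. The peak of the cluster was the adjoining pair at 96087001 and 96088001. The first held 52 H3K27me3, 13 H3K4me3, 2 H3K9me3 and 3 WCE reads (ratio 17.6, 5.70 to 88.1), and the second held 37, 6, 6 and 2 (ratio 18.8, 4.84 to 161).

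High ratios elsewhere in the upper stretch rested on fewer reads. The tile at 96080001 held 33 H3K27me3 reads and 1 WCE read (ratio 33.5, 5.61 to 1363), and that at 96078001 held 24 and 1 (24.4, 3.97 to 1002). The tile at 96082001 held 19 and 0 (at least 6.43-fold higher). The intervals of these 2 ratios and of the peak overlap widely.

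H3K4me3 differed between the 2 long H3K27me3 stretches. It was 2.32 times WCE in the upper one (1.82 to 2.98) and 0.592 times WCE in the lower (0.425 to 0.820), intervals that do not overlap. Within the upper stretch, H3K4me3 reads were gathered towards the Hoxb1 side. Its end, from 96096001 to 96104000, was also an 8 kb stretch of called H3K4me3 windows, so the ratio of 2.32 averages over unlike parts. The tiles from 96099001 and 96100001 held 25 and 23 H3K4me3 reads and were called, while the stretch's median was 2.

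The mixed interval from 96104001 to 96128000 carried both marks. It held 283 H3K4me3, 233 H3K27me3, 77 H3K9me3 and 78 WCE reads, ratios of 3.50 (2.72 to 4.56) for H3K4me3 and 3.03 (2.34 to 3.97) for H3K27me3. H3K4me3 over H3K27me3, compared directly, was 1.15 (0.967 to 1.38), an average over unlike ends. From 96104001 to 96119000 there were 144 H3K4me3 and 195 H3K27me3 reads, and from 96119001 to 96128000 there were 139 and 38. With scaling by 100 kb bins the ratios were 6.14 for H3K4me3 and 3.76 for H3K27me3. The marks were concentrated in a few tiles. H3K4me3 had peaks of 26 reads at 96111001, 29 at 96115001 and 65 at 96119001, and 4 reads in the median tile.

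Both marks were called in 3 of the 260 tiles, where 0.00502% of tiles were called for both genome-wide. They were 15.8% of the region's H3K27me3 calls and 8.82% of its H3K4me3 calls, and both sets of calls share the WCE reads. Genome-wide, 97 tiles were called for both, among 763 called for H3K27me3 and 20664 for H3K4me3. With so few calls, nothing is read from how many tiles the marks shared. The tile at 96099001 held 25 H3K4me3, 29 H3K27me3, 4 H3K9me3 and 3 WCE reads, with ratios of 8.04 (2.45 to 41.6) for H3K4me3 and 9.81 (3.04 to 50.3) for H3K27me3. The tile at 96109001 held 20, 25, 7 and 1, with ratios of 19.3 (3.09 to 800) and 25.4 (4.15 to 1042). That at 96115001 held 29, 41, 11 and 5, with ratios of 5.60 (2.14 to 18.5) and 8.32 (3.29 to 27). All 3 lay between 96099001 and 96116000, on the Hoxb1 side of the H3K27me3 peak.

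In each of these tiles the 2 marks peaked in the same 250 bp. The bin from 96099251 held 13 H3K4me3 and 19 H3K27me3 reads, that from 96109251 held 11 and 14, and that from 96115501 held 13 and 21. H3K9me3 also had its most reads of each tile in these bins, with 3, 4 and 7, so the coincidence is not particular to the 2 marks. WCE had 2, 0 and 1 reads in them. Reads pooled from many cells do not show whether the marks shared a chromosome or lay in different cells or on different alleles.

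**Figure D3:**
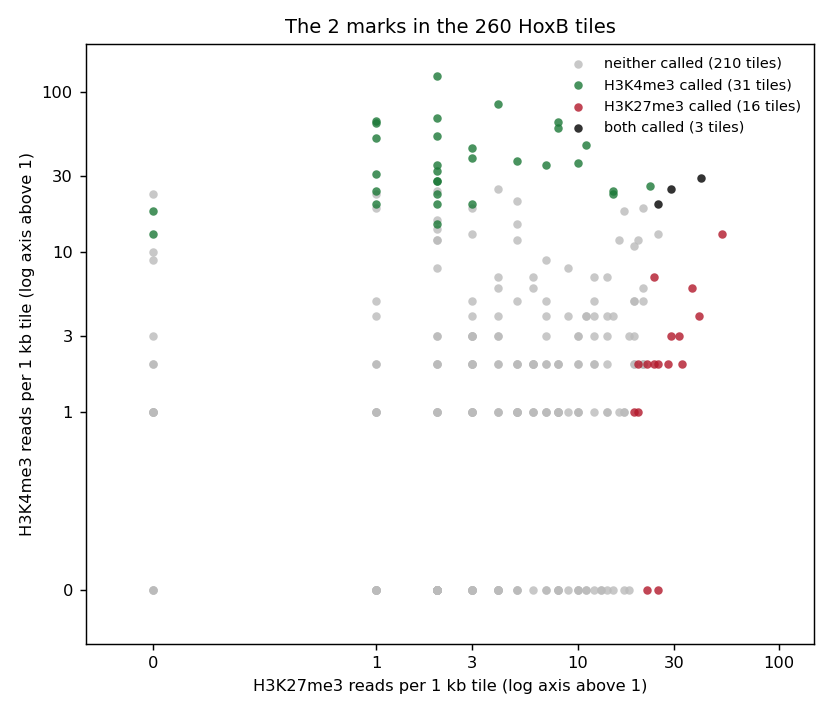
H3K4me3 against H3K27me3 reads in the 260 tiles (log axes above 1 read), coloured by call. The 31 tiles called for H3K4me3 alone and the 16 called for H3K27me3 alone lie towards the top and the right, and the 3 tiles called for both lie in the upper right corner of the points.

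Other tiles nearby also held many reads of both marks without passing both calls. The tile at 96111001 held 26 H3K4me3 and 23 H3K27me3 reads, that at 96103001 held 19 and 21, and that at 96102001 held 18 and 17. Across all 260 tiles Spearman's rho was 0.06 between H3K4me3 and H3K27me3 reads, 0.49 between H3K4me3 and WCE and 0.13 between H3K27me3 and WCE. For H3K9me3 it was 0.32 with H3K4me3, 0.35 with H3K27me3 and 0.30 with WCE. Neighbouring tiles are not independent and all libraries share the mappability of a tile, so these values only describe the region.

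The change from H3K27me3 to H3K4me3 was located as a single step. The step in the share of H3K4me3 among the reads of both marks was located by maximum likelihood between the start of the upper H3K27me3 stretch and the end of the H3K4me3 stretch. It fell at 96118903, and positions from 96118883 to 96118954 were within the 95% likelihood limit, which gives the precision of an assumed step and not the width of the change. Below it H3K4me3 over H3K27me3 was 0.398 (0.352 to 0.450), with 368 and 878 reads. Above it the ratio was 9.54 (8.05 to 11.4), with 1485 and 148 reads.

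H3K27me3 fell before this step, and called H3K4me3 tiles began below it, at 96099001. The last tile with many H3K27me3 reads, at 96115001, held 41. The 3 tiles that followed held 10, 7 and 4 H3K27me3 reads and 0, 5 and 4 H3K4me3 reads. H3K27me3 thus declined between 96116001 and 96119000, from a ratio to WCE of 3.38 (0.871 to 19.1) in the first tile. H3K4me3 was not high there. The tile at 96119001 then held 65 H3K4me3, 8 H3K27me3, 11 H3K9me3 and 9 WCE reads (H3K4me3 ratio 6.97, 3.45 to 15.9). Most of them lay in its last 250 bp, from 96119751, with 39 H3K4me3 and 4 H3K27me3 reads.

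**Figure D4:**
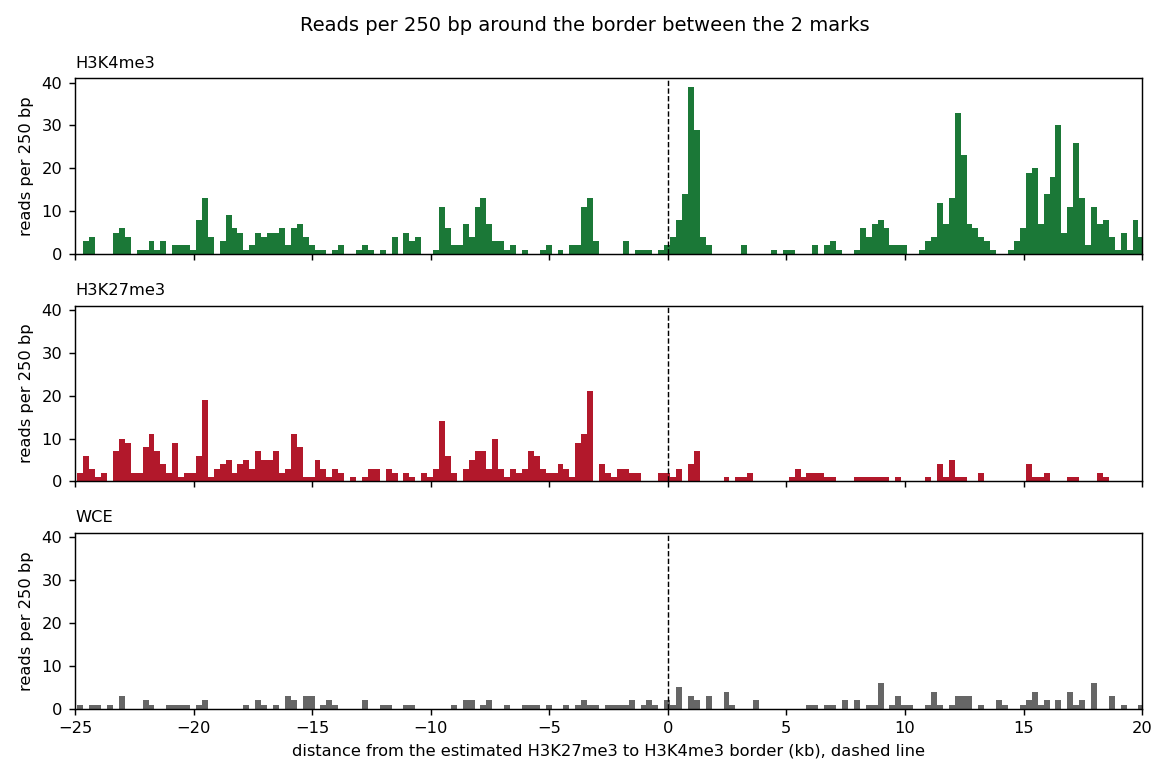
Reads per 250 bp for H3K4me3, H3K27me3 and WCE against distance in kb from the estimated border between the marks (dashed line, at 96118903). The H3K27me3 peak of 21 reads lies below the border, in a bin with 13 H3K4me3 reads. The H3K4me3 peak of 39 reads lies just above the border, and peaks of both marks also coincide farther below.

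The H3K4me3 stretch, from 96128001 to 96172000, held 1344 H3K4me3, 110 H3K27me3, 107 H3K9me3 and 200 WCE reads. The H3K4me3 ratio was 6.48 (5.58 to 7.56), and H3K4me3 over H3K27me3 was 11.6 (9.56 to 14.2). H3K4me3 exceeded scaled WCE in all 44 tiles, where this held for 26.0% of tested tiles genome-wide, and 26 tiles were called. No tile held fewer than 4 H3K4me3 reads, and the median was 23.0. Calls of the same mark chose the stretch, so nothing is read from these counts. Its weakest tiles could not be told from WCE, such as that at 96129001 with 4 H3K4me3 and 2 WCE reads (1.93, 0.277 to 21.3) and that at 96167001 with 21 and 13 (1.56, 0.745 to 3.39).

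The stretch had several peaks. The highest tile of the region, at 96149001, held 126 H3K4me3, 2 H3K27me3, 11 H3K9me3 and 2 WCE reads (ratio 60.8, 16.5 to 507, adjusted p 1.49e-30 by the binomial test). Its neighbour at 96148001 held 66 H3K4me3 reads but also 17 WCE reads, the most WCE of any tile, of which 10 fell in the 250 bp from 96148751. The ratio there was 3.75 (2.17 to 6.81). By reads the second tile is the fourth highest of the region, and by ratio it is below all 10 of the highest.

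The other peaks were lower. Near the Hoxb1 side, the tile at 96169001 held 84 H3K4me3 and 4 WCE reads (20.3, 7.63 to 76.1), beside 53 and 4 at 96168001 (12.8, 4.71 to 48.6) and 32 and 3 at 96170001 (10.3, 3.22 to 52.5). On the Hoxb13 side, the tile at 96135001 held 64 and 6 (10.3, 4.48 to 29.1), and that at 96131001 held 69 and 9. Between the main peaks, 47 and 4 reads at 96160001 gave a ratio of 11.3 (4.14 to 43.3), and 35 and 2 at 96157001 gave 16.9 (4.34 to 145). Among the tiles with 0 WCE reads, that at 96139001 held 13 H3K4me3 reads (at least 4.18-fold higher), and that at 96100001, in the upper H3K27me3 stretch, held 23 (at least 7.40-fold higher). The intervals of the ratios given here overlap with each other.

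H3K27me3 was low over the H3K4me3 stretch relative to WCE, at 0.558 (0.438 to 0.708), with a median of 2 reads per tile and at most 11, at 96160001. WCE was dense here, at 1.53 reads per kb for each 1000000 autosomal reads against 0.487 in the gap. Against the autosomal mean of its own library instead of WCE, H3K27me3 was 2.10 times as dense, so the low ratio depends on the WCE reads. WCE thus moves with the H3K4me3 segment, and its part in the ratios was not tested.

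The 44 kb stretch was the longest of H3K4me3 in the genome, followed by 2 on chromosome 8 (36 and 32 kb) and 1 more on chromosome 11 from 98588001 to 98616000 (28 kb). Of the 1 kb tiles of the HoxB stretch 59.1% were called, against 38.9%, 37.5% and 32.1% in these. The 36 kb stretch was like it in other measures, with a median of 22.5 H3K4me3 reads per tile against 23.0, a minimum of 4 in both, and all 36 tiles above scaled WCE. The minimum was 0 in the others. These stretches were picked by length in the same library, so the comparison has no test.

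The upper edge of H3K4me3 was located in the same way. A single step against WCE was placed at 96171609, with positions from 96171163 to 96172086 within the likelihood limit. The ratio was 6.52 (5.61 to 7.60) below it and 0.753 (0.544 to 1.04) above. The H3K4me3 counts from the tile at 96169001 onwards were 84, 32, 9, 3 and 1. From the border with H3K27me3 to this edge the distance was 52.7 kb.

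Beyond this edge H3K27me3 was raised again at a lower level. The far stretch, from 96180001 to 96188000, held 64 H3K27me3, 12 H3K4me3, 19 H3K9me3 and 14 WCE reads, an H3K27me3 ratio of 4.64 (2.57 to 8.96). The only called tile, at 96182001, held 20 H3K27me3 reads and 1 WCE read (20.3, 3.25 to 841, adjusted p 0.0273 by the binomial test). A step up in H3K27me3 was placed at 96177065 (likelihood limits 96173580 to 96179005), which is 5.46 kb beyond the end of H3K4me3. Its fall on the far side could not be located well, with 96216199 as the best position and limits from 96192605 to 96218016. In the upper flank the H3K27me3 ratio was 1.95 (1.42 to 2.70).

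At the Hoxb13 end the outer border was also shallow. The step in H3K27me3 against WCE was placed at 95976364 (95974913 to 95983703), from a ratio of 2.03 (1.37 to 3.05) to 6.21 (5.03 to 7.74), so the mark was above WCE on both sides. The edges of the gap were placed at 96021387 (96019827 to 96034499) and 96064214 (96063438 to 96067317), a distance of 42.8 kb. The lower edge was thus less sharply set than the upper. Both edges, and those of the far stretch, were searched within limits taken from the called stretches.

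Blocks of 20 kb on a fixed grid, which no call had shaped, were tested with a two-sided exact binomial test and adjusted over all blocks of the genome. H3K27me3 was higher than WCE in 9 of the 13 HoxB blocks, where 5.78% of blocks were higher genome-wide, and lower in 1, where 3.68% were lower. The highest was the block from 96080001, with 420 H3K27me3 and 48 WCE reads (ratio 8.88, 6.58 to 12.2, adjusted p 5.12e-72 by the binomial test). The block from 96040001, wholly inside the gap, was still higher, with 75 and 27 reads (2.82, 1.79 to 4.55, adjusted p 8.08e-05 by the binomial test). The single lower block, from 96140001, held 44 H3K27me3 and 94 WCE reads (0.475, 0.324 to 0.687). It had the most WCE reads of the 13 blocks and lies inside the H3K4me3 stretch, where the low H3K27me3 ratio depends on the WCE reads.

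H3K4me3 was higher in 5 of the 13 blocks, where 7.89% were higher genome-wide, and lower in 1, where 23.6% were lower. The 5 higher blocks adjoined each other from 96080001 to 96180000. The strongest, from 96140001, held 607 H3K4me3 and 94 WCE reads (6.23, 5.01 to 7.83, adjusted p 3.87e-85 by the binomial test). The lower block, from 96020001, held 13 and 33 (0.380, 0.184 to 0.742, adjusted p 0.0153 by the binomial test). Block tests used autosomal totals alone and were not rerun with the scaling by 100 kb bins, which raises all H3K4me3 ratios 1.75 times. With that scaling the low H3K4me3 ratio of the gap, which this block overlaps, no longer passed the threshold. Whether the lower call of the block holds under it was not tested. A pair of adjoining blocks, from 96080001 to 96120000, were higher for both marks. The change of sides along the cluster is visible on the fixed grid too. The grid counts the same reads that set the stretches, so this is no separate support.

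**Figure D5:**
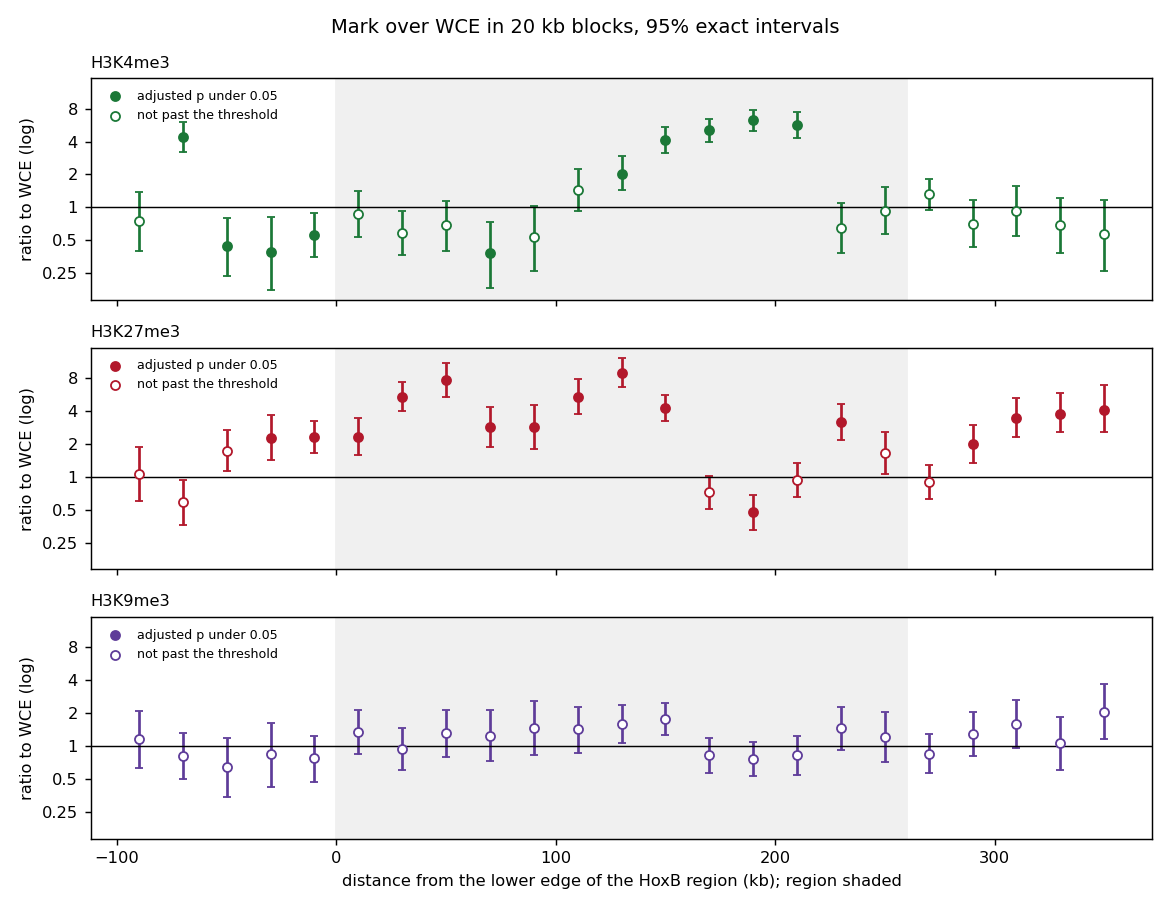
Ratio of each mark to WCE (log axis) in 20 kb blocks with 95% exact intervals, for the region (shaded) and 100 kb on each side, against distance from its lower edge in kb. Filled points passed the adjusted threshold. H3K27me3 falls below WCE where H3K4me3 is at 6.23, in the block with the most WCE reads. In the last block shown H3K27me3 is at 4.11 again.

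H3K27me3 was also raised outside the region, directly on the Hoxb13 side and after an interval at WCE level on the Hoxb1 side. On the Hoxb13 side the blocks from 95920001 and 95940001 were higher than WCE (2.26, 1.41 to 3.70, and 2.32, 1.66 to 3.26). The block from 95880001 carried H3K4me3 instead, with 236 H3K4me3 and 52 WCE reads (4.38, 3.23 to 6.03). On the Hoxb1 side, the block from 96220001 was at 0.896 (0.622 to 1.29), next to the uncalled last block of the region, from 96200001, at 1.65 (1.07 to 2.59). The 4 blocks from 96240001 to 96320000 were all higher than WCE, at 1.98, 3.43, 3.77 and 4.11. H3K4me3 was not higher in any of these 4 blocks.

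H3K9me3 was called in no block of the cluster. None of the 13 was called higher or lower, where 0.691% were higher and 0.123% lower genome-wide. The closest was the block from 96100001, with 83 H3K9me3 and 66 WCE reads (1.78, 1.27 to 2.50, adjusted p 0.0541 by the binomial test). This block also held the 2 tiles at 96109001 and 96115001 that were called for both other marks. By segment the H3K9me3 ratio was highest, among the long segments, in the upper H3K27me3 stretch (1.70, 1.28 to 2.26). It was lowest in the H3K4me3 stretch (0.758, 0.594 to 0.963). The intervals of these 2 segments do not overlap. This ranking depends on the WCE reads. Against the autosomal mean of its own library, H3K9me3 was 3.31 times as dense in the upper H3K27me3 stretch and 2.85 times in the H3K4me3 stretch. By that measure the mixed interval was highest, at 3.76. The other long segments were below the H3K4me3 stretch, from 1.46 in the gap to 2.23 in the lower flank.

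The tiles with most H3K9me3 reads were 96115001, 96119001 and 96149001, each with 11. Each of them is also a peak of H3K4me3, and the first a peak of H3K27me3. Their H3K9me3 ratios were 3.12 (0.999 to 11.4), 1.73 (0.652 to 4.73) and 7.79 (1.70 to 72.4), and each had an adjusted p of 1 in the binomial test. At 11 reads a tile, H3K9me3 enrichment of single tiles was hardly detectable at this depth.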

How the data were processed

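ChIP-seq was analysed from 4 libraries of MDER 10T cells (H3K4me3, H3K27me3, H3K9me3 and WCE), grouped by the antibody label. The deposited files list signed read positions, an other kind of value than counts, negative for reverse-strand reads. Reads were aligned to mm8 with Bowtie (e 70, k 2, m 2, n 2, l 36), per the file headers. The Bowtie version is not given in the sources used here. Per the labels' protocols, chromatin had a mean of 500 bp and libraries had 18 cycles of PCR. Reads with 1 position were collapsed to 1 per signed position, shifted 60 bp along their strand and counted in tiles. Repeated positions were 5.92% to 8.40% of them. Ratios are scaled by autosomal totals, with Clopper-Pearson intervals at 95%. Sequencing depth limits single tiles, with a median of 2 WCE reads each.

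The region, members, segments and tests were chosen with earlier results of these data known. Named tiles are, per mark, the 10 calls ranked highest by log2 ratio (after adding 1 read to either library), or for H3K9me3, without calls, the 3 with most reads, together with border tiles, empty tiles of the gap and tiles called for both marks. Blocks of 20 kb, 250 bp bins, the edges of the gap and of the far stretch, and the other long H3K4me3 stretches were added later. Labelled cell type was not checked against marker genes, as no mm8 gene positions were used. Calls and borders were tested on simulated data. Alternatives changed repeated reads, shift, scaling, tile size, thresholds, control and reads with 2 positions. Software was scipy 1.17.1, numpy 2.4.6 and matplotlib 3.10.9 under Python 3.11.15.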

Additional observations from a re-analysis of the deposited data

Results flagged for a closer look

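Reads with 2 reported positions, which the comparisons above leave out, were more frequent in the HoxB region for H3K4me3 and H3K27me3 than for WCE. After repeated positions were collapsed, H3K4me3 had 26 such reads against 5 for WCE (5.92 times after scaling by all autosomal reads of this kind, 2.24 to 19.7). H3K27me3 had 20 (3.96, 1.44 to 13.5), and H3K9me3 had 10 (2.40, 0.747 to 8.94). Each interval contains the region ratio from reads with 1 position, which was 2.99 for H3K4me3, 3.17 for H3K27me3 and 1.18 for H3K9me3. No difference between the 2 kinds of read is thus shown. The H3K4me3 reads were gathered in few tiles, with 8 at 96161001, 4 at 96100001 and 3 at 96136001, while no tile held more than 1 such H3K27me3 read. Each of these reads is listed at both of its positions, so its origin is not known.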

How the results depend on the processing

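The ratios over the whole region kept their direction and their side of the threshold under every setting run. Scaling by the median ratio over 100 kb bins raised all log2 ratios by 0.81 for H3K4me3, 0.31 for H3K27me3 and 0.08 for H3K9me3. With it, called H3K27me3 tiles rose to 30 and tiles called for both marks to 6, and the low H3K4me3 ratio in the gap, at 0.817, no longer passed the threshold (p = 0.435, two-sided exact binomial test), and that of the lower H3K27me3 stretch turned to 1.04. A uniform background in place of WCE, which leaves the denser WCE of the region out of account, gave 65 H3K4me3, 119 H3K27me3, 14 H3K9me3 and 24 shared tiles. It turned H3K4me3 to 1.44 in the lower flank and 1.12 in the lower H3K27me3 stretch, and in the H3K4me3 stretch it turned H3K27me3 to 2.10 and H3K9me3 to 2.85. With 500 bp tiles 4 were called for H3K27me3, against 28 with 2 kb tiles. With 2 kb tiles 5 were called for both marks, and with 4 kb tiles 17 were called for H3K4me3. Tiles of different size cover different lengths of DNA, so these counts do not compare directly with those of 1 kb tiles. An adjusted p under 0.01 left 11 H3K27me3 tiles, and keeping repeated reads gave 5 tiles with both marks. Without the read shift the border between the marks moved to 96118861, outside its likelihood limits. Segment ratios, named tiles and added edges were rerun after seeing the data. Of these values 245 kept their call (or, for edges, stayed within their limits), 11 gained and 5 lost it, and the 5 given above reversed. No paired analysis was possible because each group has 1 library. Depth limits single tiles most, and H3K9me3 more than the other marks.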
